A study of Mus musculus with 6 samples.

Results

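The clustered protocadherins are a family of cadherin-type adhesion molecules encoded by tandem arrays of genes, the alpha, beta and gamma clusters. They were taken as the protein-coding genes of the count table whose mouse symbol is Pcdha, Pcdhb, Pcdhga, Pcdhgb or Pcdhgc with a number, or Pcdhac1 or Pcdhac2. This gave 57 of the 47728 genes in the table, 14 in the alpha, 22 in the beta and 21 in the gamma cluster. Pcdhgb8 carries a matching symbol but is annotated as a polymorphic pseudogene, had 0 to 3 counts per library and was left out. Bulk RNA of the cerebral cortex was sequenced from mice labelled FAD5x and from C57BL/6 mice as Control, with 3 libraries in each group. The FAD5x line, used to model Alzheimer's disease, is known to carry mutated human amyloid precursor protein and presenilin transgenes under the neuronal Thy1 promoter. The labels give no age, sex or strain background for the FAD5x mice, nor whether each library is its own animal. The p-values therefore reflect variation among these libraries, part of which may be technical.

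Each alpha and gamma gene has a large variable exon with its own promoter, which is spliced to constant exons shared by its whole cluster, whereas beta genes consist of a variable exon alone. Single neurons are known to choose a few of these promoters, through DNA methylation and looping by CTCF and cohesin, and the resulting mix of homophilic surface proteins lets a neuron tell its own branches from those of others. The C-type members at the ends of the alpha and gamma clusters (Pcdhac1, Pcdhac2, Pcdhgc3, Pcdhgc4 and Pcdhgc5) are known to be used more uniformly from cell to cell than the other members. In bulk cortex a level sums over all cells, so fewer cells that use a promoter and less RNA in each of them cannot be told apart.

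Libraries held 17363946 to 24137936 counts, of which 6798 to 13463 fell on the 57 members. The names of FAD5x libraries 1 and 2 are related, and both were kept. Their chi-square over degrees of freedom was 62.8, against 40.9 and 59.7 for the remaining FAD5x pairs. That value rises with depth, and these libraries were the deepest, so it cannot show whether they come from the same animal. The level of Xist was 3 counts in Control replicate 1 and 10346 to 22631 counts in the remaining libraries, and the Y-linked genes Ddx3y, Eif2s3y, Kdm5d and Uty held 3124 counts in that library and 0 to 9 in each of the rest, so sex cannot be told apart from that library. CPM here means counts per 1000000 counts on tested genes, that total being scaled by TMM (the trimmed mean of M values), and fold changes are FAD5x over Control with their standard error (SE). The SE was derived from edgeR's test, as the absolute log2 fold change divided by the square root of the F statistic.

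The sources used here do not give how reads in the shared constant exons were counted. Gm42416, Gm37013 and Gm37388, read-through genes whose exons overlap those of members, had 0 counts in every library. Counts were also low in members with few exonic bases that belong to no other gene. Pcdha4 has 404 such bases and had 0 to 10 counts per library, and Pcdhga10 has 0 and had 1 to 12. With Pcdhb1 (0 to 20 counts) and the Pcdha11 entry ENSMUSG00000102206 (1 to 8 counts), these were the 4 members below the filter on low counts, which left 53 tested. A second entry with the symbol Pcdha11, ENSMUSG00000007440, starts where RefSeq of the same earlier mouse build puts Pcdha10. Some sequence is shared between members. Of the words of 50 bases in their own exons, a median of 14.8% in alpha, 3.35% in beta and 1.03% in gamma occurred in transcripts of other genes, and counts are uncertain to that extent.

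Per kilobase of own exonic sequence, 2 of the 3 gamma C-type members had the highest levels of the family. Pcdhgc3, known for promoting dendrite arbors, had a mean of 17.7 CPM per kilobase over the 6 libraries and Pcdhgc5, known to bind GABA-A receptors, had 17.4. Pcdhga11 followed with 9.29 and Pcdhac2 with 8.29 CPM per kilobase. No beta member passed the 3.56 CPM per kilobase of Pcdhb20, and the next of that cluster were Pcdhb7 (3.28) and Pcdhb12 (2.98). In alpha, Pcdha12 (3.41) and Pcdha5 (2.57) came after Pcdhac2, and the lowest tested member was Pcdha8 with 0.498. These ranks depend on the length used. Own sequence was 1256 of 4756 exonic bases in Pcdhga11, 1821 of 5499 in Pcdhgc3 and 1107 of 3034 in Pcdhb12. Whether reads in the remaining bases were counted is not given, so the ranks of such members are uncertain.

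**Figure D1:**
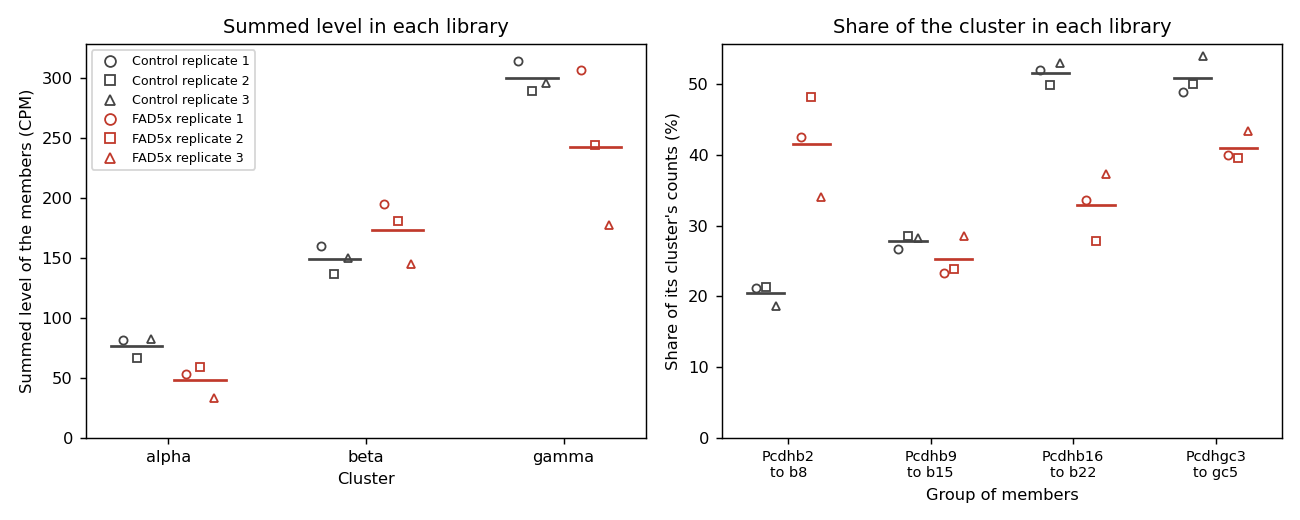
The left panel plots the summed CPM of the members of each cluster in each library, and the right panel the percent of a cluster's counts held by 3 stretches of the beta cluster and by the 3 C-type gamma members. Grey marks are Control, red marks FAD5x, symbols the replicate and bars the mean of 3 libraries. Alpha sums are lower in all 3 FAD5x libraries, and Pcdhb2 to Pcdhb8 hold 34.0% to 48.3% of beta counts in FAD5x against 18.7% to 21.3% in Control.

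The 3 clusters differed in where FAD5x stood against Control. Alpha members summed to 52.9, 59.2 and 33.2 CPM in FAD5x (replicates 1, 2 and 3), against 81.2, 66.3 and 82.1 CPM in Control (likewise), so the groups did not overlap. Beta members summed to 195, 181 and 145 CPM in FAD5x, against 160, 136 and 150 CPM in Control, and gamma members to 307, 244 and 177 CPM in FAD5x, against 315, 289 and 296 CPM in Control. The beta and gamma sums overlapped between the groups. The median log2 fold change of tested members was -0.85 over 12 alpha, 0.05 over 21 beta and -0.18 over 20 gamma genes, against 0.02 over all 17074 tested genes.

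In all, 4 members rose and 1 fell in FAD5x cortex by edgeR's quasi-likelihood test at an adjusted p below 0.05, against 1.76% of all tested genes called higher and 1.39% called lower. The 4 that rose, Pcdhb3, Pcdhb5, Pcdhb6 and Pcdhb8, are all beta members, and the 1 that fell, Pcdhgc4, is a gamma member. At an unadjusted p below 0.05, 6 of 53 tested members were higher and 15 lower, against 11.2% and 10.1% of all tested genes. The share of members higher was near that over all genes, and the share lower was above it. The libraries of the groups did not overlap for 6 members higher and 15 lower in FAD5x, against 14.1% and 13.2% of all tested genes. Here the share of members higher was not above that over all genes, and the share lower was again above it. DESeq2 called 4 members higher, where it called 4.47% of all tested genes, and 8 lower, where it called 4.23%.

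**Figure D2:**
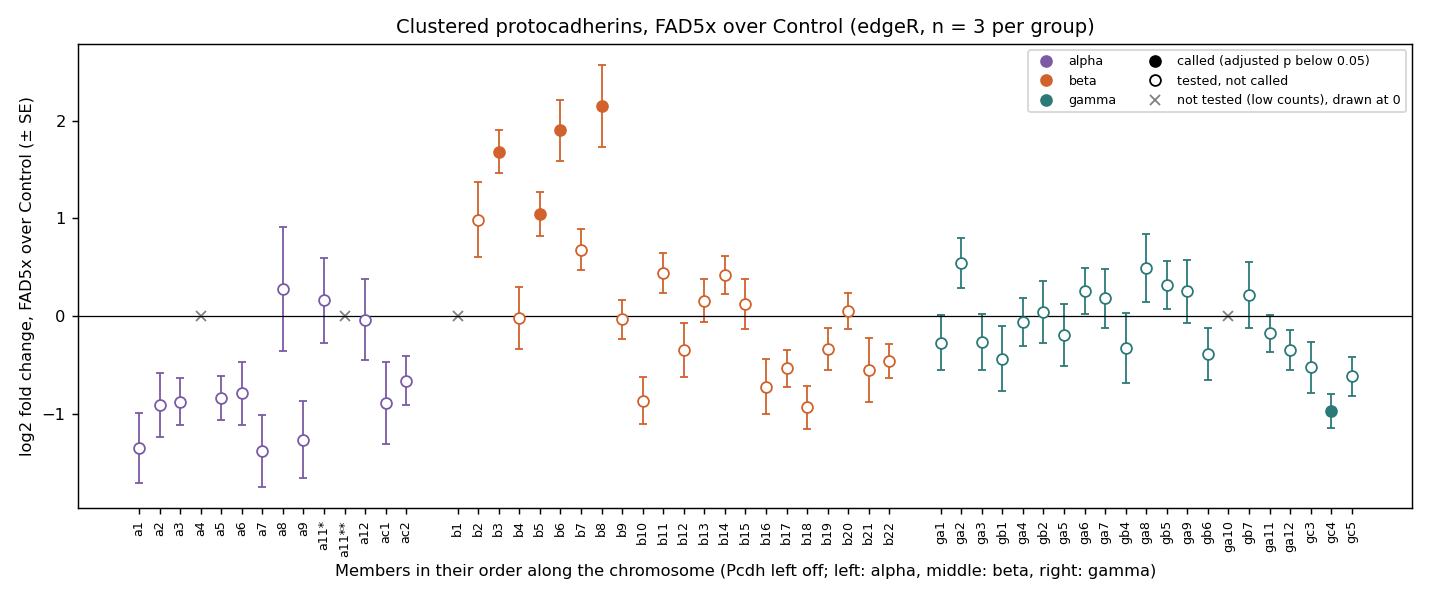
Log2 fold change of each member, FAD5x over Control, with its SE, in the order of the genes along the chromosome. Filled circles passed the test, open circles did not and crosses mark the 4 members that were not tested; a11* is ENSMUSG00000007440 and a11** is ENSMUSG00000102206. Members from Pcdhb2 to Pcdhb8 lie at 0.68 or more except Pcdhb4, while the tested members from Pcdha1 to Pcdha7 and the 5 C-type members lie below 0.

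The risen members lie near each other at the start of the beta cluster. Pcdhb8 had the highest fold change of the family, with 14.4, 21.997 and 6.37 CPM in FAD5x (replicates 1, 2 and 3), against 3.30, 3.60 and 2.74 CPM in Control (likewise). FAD5x replicate 3 was the lowest FAD5x library and still stood above every Control library. Pcdhb8 rose 4.43-fold (log2 2.15 ± 0.42 SE, n = 3 per group; edgeR adjusted p = 0.0377). Like the other beta proteins, it has cadherin repeats, a single membrane span and a short cytoplasmic tail without the constant part of alpha and gamma proteins.

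Pcdhb6 had 15.7, 13.1 and 8.99 CPM in FAD5x, against 4.68, 2.98 and 2.46 CPM in Control, and rose 3.73-fold (log2 1.90 ± 0.31, edgeR adjusted p = 0.0197). The lowest FAD5x library was again replicate 3, and the highest Control library was replicate 1. Of the 50-base words of Pcdhb6 7.54% also occurred in other transcripts, most often in those of Pcdhb8, so the split of counts between these near neighbours is uncertain to that extent.

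Pcdhb3 had 15.004, 17.7 and 11.02 CPM in FAD5x, against 4.79, 4.83 and 3.97 CPM in Control. All FAD5x libraries lay above all Control libraries by more than the range within Control, and Pcdhb3 rose 3.21-fold (log2 1.68 ± 0.22, edgeR adjusted p = 0.0104). It shared 2.89% of its words with other genes, most often with Pcdhb9, which had 8.45, 7.75 and 10.5 CPM in FAD5x, against 10.7, 8.26 and 8.33 CPM in Control and did not pass the test (log2 -0.03, adjusted p = 0.952).

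Pcdhb5 stood at 10.1, 10.998 and 7.42 CPM in FAD5x, against at 4.79, 4.16 and 4.86 CPM in Control, and rose 2.06-fold (log2 1.05 ± 0.22, edgeR adjusted p = 0.0445). The Control libraries were close together, and the FAD5x libraries were all above them. Its neighbour Pcdhb7 had 17.6, 14.1 and 10.6 CPM in FAD5x, against 9.52, 8.15 and 8.78 CPM in Control, without overlap, but was not called (log2 0.68 ± 0.21, adjusted p = 0.122). Pcdhb2 had 6.55, 5.04 and 2.40 CPM in FAD5x, against 2.64, 1.97 and 2.46 CPM in Control, where FAD5x replicate 3 fell within the Control range (log2 0.99 ± 0.38, adjusted p = 0.187). Pcdhb4, which lies between risen members, had 3.63, 4.26 and 2.35 CPM in FAD5x, against 4.24, 3.43 and 2.68 CPM in Control, with a log2 fold change of -0.01 ± 0.32 (adjusted p = 0.987).

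**Figure D3:**
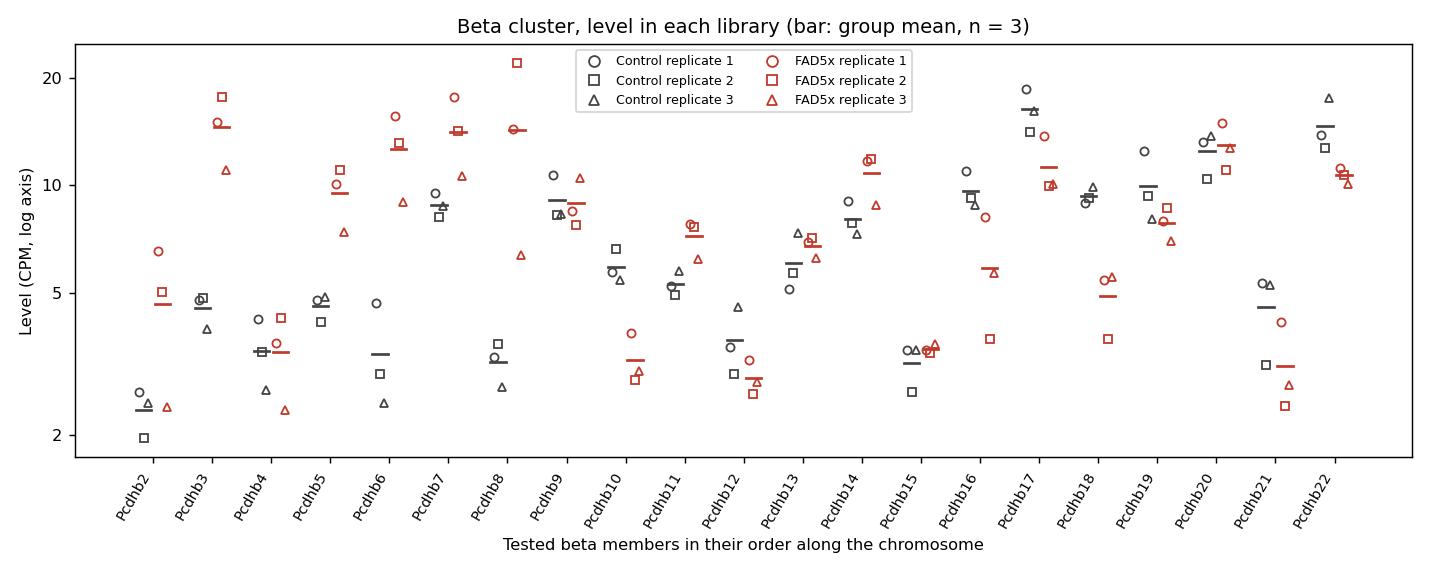
CPM on a log axis of the 21 tested beta members in each library, in chromosome order; grey is Control, red is FAD5x, symbols mark the replicate and bars the mean of 3 libraries. The FAD5x marks of Pcdhb3, Pcdhb5, Pcdhb6, Pcdhb7 and Pcdhb8 all lie above the Control marks, and those of Pcdhb10, Pcdhb16, Pcdhb17, Pcdhb18 and Pcdhb22 all lie below.

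These calls depended on single libraries, as did calls over all genes, which were 300 higher and 237 lower with every library. Without Control replicate 1, 2 or 3 they were 42 and 56, 39 and 42, and 72 and 80. Without FAD5x replicate 1, 2 or 3 they were 101 and 103, 604 and 385, and 283 and 314. Without Control replicate 2 none of the 4 was called (adjusted p = 0.0646 for Pcdhb3), and only Pcdhb3 was without FAD5x replicate 1 or Control replicate 3. Pcdhb3 and Pcdhb6 were called without Control replicate 1, Pcdhb5 alone lost its call without FAD5x replicate 2, and all 4 kept theirs without FAD5x replicate 3.

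The 7 members from Pcdhb2 to Pcdhb8, a stretch chosen after its values were seen, summed to 83.0, 87.3 and 49.2 CPM in FAD5x, against 34.0, 29.1 and 28.0 CPM in Control, a ratio of 2.41. From Pcdhb9 to Pcdhb15 the sums were 45.5, 43.3 and 41.3 CPM in FAD5x, against 42.8, 39.0 and 42.3 CPM in Control, a ratio of 1.05. Those from Pcdhb16 to Pcdhb22 were 65.7, 50.2 and 53.9 CPM in FAD5x, against 83.3, 68.1 and 79.5 CPM in Control, a ratio of 0.735. The first stretch was higher and the last stretch lower in every FAD5x library than in every Control library, and the middle stretch overlapped.

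Among the later beta members, Pcdhb18 had 5.44, 3.73 and 5.54 CPM in FAD5x, against 8.92, 9.21 and 9.89 CPM in Control (log2 -0.93 ± 0.22, edgeR adjusted p = 0.0604). Pcdhb10 had 3.87, 2.86 and 3.03 CPM in FAD5x, against 5.73, 6.63 and 5.42 CPM in Control (log2 -0.86 ± 0.24, adjusted p = 0.0944). Neither passed the edgeR test, while DESeq2 called both lower. By edgeR 0 beta members were called lower, with 5 at an unadjusted p below 0.05, 2 called by DESeq2 and 0 by limma-voom. The members with the highest level per kilobase were not called: Pcdhb20 had a log2 fold change of 0.05 ± 0.19 and Pcdhb12 of -0.35 ± 0.28 (adjusted p = 0.902 and 0.517).

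Most alpha members had lower values in FAD5x, and no single one passed the test. Of the 12 tested, 10 had a log2 fold change below 0, and for 8 all FAD5x libraries lay below all Control libraries, against 13.2% of all tested genes. By edgeR 0 were called lower, with 8 at an unadjusted p below 0.05, 5 called by DESeq2 and 0 by limma-voom. All 6 tested members from Pcdha1 to Pcdha7, the first in the cluster, were among the 8 without overlap. This stretch was chosen after its values were seen. Its summed level, Pcdha4 included, was 14.9, 11.7 and 12.7 CPM in FAD5x, against 28.7, 23.04 and 25.2 CPM in Control.

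Pcdha7 had 2.39, 1.11 and 1.72 CPM in FAD5x, against 6.11, 3.54 and 3.97 CPM in Control, the lowest fold change of the family (log2 -1.37 ± 0.37, edgeR adjusted p = 0.0862). Pcdha1 had 0.824, 0.775 and 0.888 CPM in FAD5x, against 2.20, 2.58 and 1.57 CPM in Control (log2 -1.35 ± 0.36, adjusted p = 0.0862), from 16 to 46 counts per library. The FAD5x libraries of Pcdha1 were nearly equal, and the spread lay in Control. Pcdha5 had 4.53, 4.36 and 4.08 CPM in FAD5x, against 9.14, 6.07 and 7.94 CPM in Control (log2 -0.83 ± 0.23, adjusted p = 0.0888). These were the alpha members with the smallest p.

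After Pcdha7 the alpha members were mixed. Pcdha9 had 2.68, 2.47 and 1.72 CPM in FAD5x, against 8.70, 3.31 and 4.53 CPM in Control, again without overlap (log2 -1.26 ± 0.39, edgeR adjusted p = 0.123). Pcdha12 had 5.11, 11.1 and 3.40 CPM in FAD5x, against 5.28, 7.08 and 7.77 CPM in Control, with FAD5x libraries both above and below all of Control (log2 -0.03 ± 0.41, adjusted p = 0.975). The entry ENSMUSG00000007440 had 4.33, 5.43 and 1.57 CPM in FAD5x, against 2.81, 3.20 and 4.14 CPM in Control, and Pcdha8 had 0.866, 2.57 and 0.627 CPM in FAD5x, against 0.606, 0.899 and 1.84 CPM in Control. In Pcdha8, Pcdha12 and ENSMUSG00000007440 FAD5x replicate 2 was the highest library and FAD5x replicate 3 the lowest FAD5x library.

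**Figure D4:**
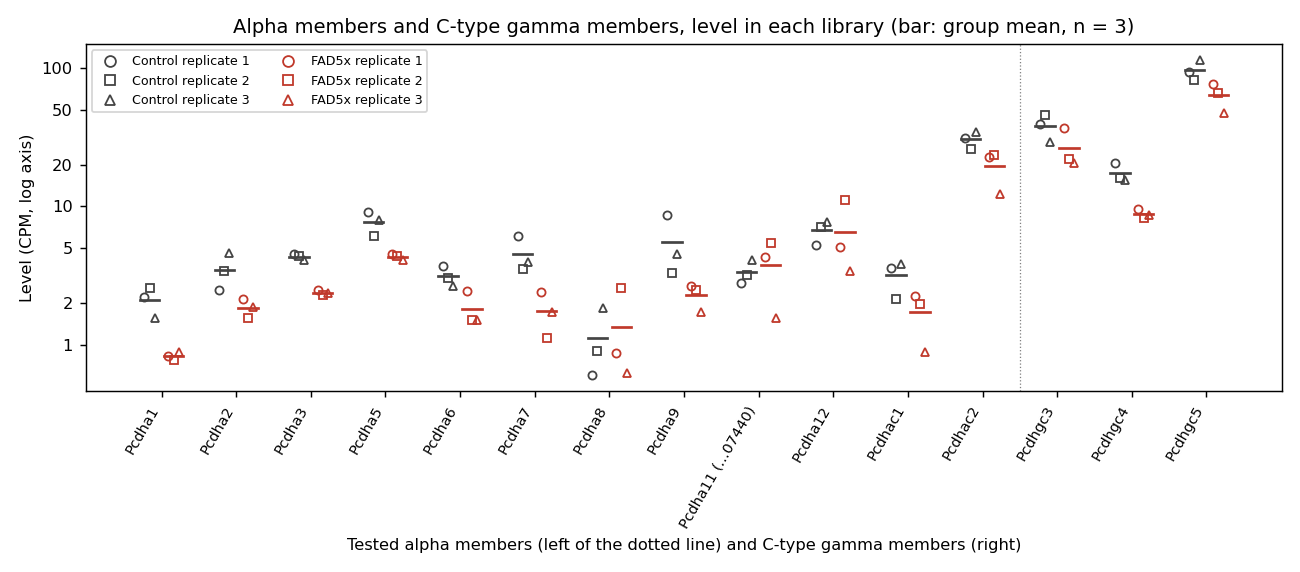
CPM on a log axis of the 12 tested alpha members and the 3 C-type gamma members in each library; grey is Control, red is FAD5x, symbols mark the replicate and bars the mean of 3 libraries. FAD5x marks lie below Control marks without overlap for the tested members from Pcdha1 to Pcdha7 (Pcdha4 was not tested), Pcdha9, Pcdhac2, Pcdhgc4 and Pcdhgc5.

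All 5 C-type members had fold changes below 0 in FAD5x, and 1 of them fell. Pcdhgc4, known to be needed for the survival of cortical interneurons, had 9.65, 8.29 and 8.62 CPM in FAD5x (replicates 1, 2 and 3), against 20.6, 16.1 and 15.4 CPM in Control (likewise). The highest FAD5x library was well below the lowest Control library, and Pcdhgc4 fell 1.96-fold (log2 -0.97 ± 0.17, n = 3 per group; edgeR adjusted p = 0.0249). Its call was lost without FAD5x replicate 1 (edgeR adjusted p = 0.0598) or without Control replicate 1, 2 or 3 (0.120, 0.0989 and 0.0660). In each of these fits fewer of all tested genes were called too, as given above.

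Pcdhgc5 had 76.2, 66.5 and 47.6 CPM in FAD5x, against 94.0, 82.4 and 115 CPM in Control, without overlap, but was not called (log2 -0.61 ± 0.20, adjusted p = 0.131). Pcdhac2, known for the spacing of serotonergic axons, had 22.6, 23.5 and 12.2 CPM in FAD5x, against 31.4, 26.2 and 34.6 CPM in Control, also without overlap (log2 -0.66 ± 0.25, adjusted p = 0.179). The levels of Pcdhgc3 overlapped, with 36.8, 22.05 and 20.6 CPM in FAD5x, against 39.1, 46.1 and 29.1 CPM in Control (log2 -0.52 ± 0.26, adjusted p = 0.291). So did those of Pcdhac1, with 2.27, 1.99 and 0.888 CPM in FAD5x, against 3.58, 2.14 and 3.86 CPM in Control (log2 -0.89 ± 0.41, adjusted p = 0.265). Together the 5 held 26.6%, 25.3% and 25.3% of all counts of the family in FAD5x and 33.9%, 35.2% and 37.5% in Control.

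The other gamma members, of the A and B types, had no common direction. Of 17 tested 8 had a log2 fold change above 0 and 9 below, the range was -0.44 to 0.55, and for 0 of them did the groups not overlap. Their summed level was 184, 148 and 101 CPM in FAD5x, against 161, 145 and 136 CPM in Control, so the spread within FAD5x exceeded the difference of the means. By edgeR 0 gamma members were called higher, with 0 at an unadjusted p below 0.05 and 0 by DESeq2 or limma-voom. Pcdhga2, the A-type member with the smallest p, had 11.1, 11.1 and 7.16 CPM in FAD5x, against 8.09, 5.06 and 6.99 CPM in Control (log2 0.55 ± 0.26, adjusted p = 0.266). Pcdhga11, the highest A-type member per kilobase, had 12.9, 10.5 and 9.51 CPM in FAD5x, against 14.4, 11.6 and 11.1 CPM in Control (log2 -0.17 ± 0.19, adjusted p = 0.648).

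FAD5x replicate 3 was low in the gamma cluster, though not only there. It was the lowest of all 6 libraries for 16 of the 20 tested gamma members, for 6 of 12 alpha and for 3 of 21 beta members. The median log2 level of gamma members relative to the Control mean was 0.19 in the first FAD5x replicate, -0.22 in the second and -0.71 in the third, and that of beta members was 0.12, 0.09 and 0.03. Without FAD5x replicate 3 the gamma median was 0.03. Among the lists below, this library also had the lowest sum of non-clustered protocadherins (599 CPM, against 756 to 1005 CPM in the other libraries). The sums of other cadherins, recognition molecules, cytoplasmic partners, and astrocyte, precursor and endothelial markers were lowest there too. Those of immature neuron, inhibitory neuron, oligodendrocyte and microglia markers were not. The 8 pan-neuronal markers summed to 4835 CPM in that library and to 4599 to 7720 CPM in the other libraries, and their part in the gamma values was not tested.

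Shares within a cluster do not depend on the scaling between libraries, and they gave the same order for the beta cluster. They come from the same counts and the same stretches, so they are no separate evidence. A higher share of a stretch also lowers the shares of the rest of its cluster. Pcdhb2 to Pcdhb8 held 42.6%, 48.3% and 34.0% of beta counts in FAD5x and 21.2%, 21.3% and 18.7% in Control. Pcdhb9 to Pcdhb15 held 23.3%, 23.9% and 28.6% in FAD5x and 26.7%, 28.6% and 28.2% in Control. Pcdhb16 to Pcdhb22 held 33.7%, 27.8% and 37.3% in FAD5x and 52.0%, 49.9% and 53.1% in Control. In the gamma cluster the 3 C-type members held 39.9%, 39.6% and 43.3% of counts in FAD5x and 48.9%, 50.01% and 54.0% in Control. The groups overlapped for Pcdhb9 to Pcdhb15 and did not overlap for the other shares given here.

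Calls in this list and the lists below stand against these shares over all tested genes. By edgeR 1.76% were called higher and 1.39% lower, with 11.2% and 10.1% at an unadjusted p below 0.05. DESeq2 called 4.47% higher and 4.23% lower. Of the genes that lie beside or between the clusters, 1 of 18 tested rose. This was Cd14, which encodes a myeloid receptor for bacterial lipopolysaccharide (log2 1.94 ± 0.22, edgeR adjusted p = 0.00456), with 3 higher at an unadjusted p below 0.05, 2 by DESeq2 and 1 by limma-voom. By edgeR 0 were called lower, with 0 at an unadjusted p below 0.05 and 0 by DESeq2 or limma-voom. The median log2 fold change of the flanking genes was 0.06. Taf7, a subunit of the general transcription factor TFIID whose gene lies between the beta and gamma clusters, had a mean of 6.40 CPM in FAD5x, against 7.50 CPM in Control (log2 -0.23, adjusted p = 0.550). Diaph1, the formin gene after the gamma cluster, had 59.1 and 59.3 CPM (log2 0.00, adjusted p = 0.996).

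Genes known to act on the choice of these promoters were tested gene by gene and counted as lists, with no test of a list. The CTCF and cohesin list held 12 genes, for CTCF, cohesin, its loaders and other regulators, and the transcription factor gene Zfp143. Of these 11 had a fold change below 0, with a median of -0.19. By edgeR 0 were called, with 4 lower at an unadjusted p below 0.05, 1 by DESeq2 and 0 by limma-voom. Ctcf itself had means of 65.1 CPM in FAD5x, against 66.8 CPM in Control (log2 -0.04, adjusted p = 0.882), and Rad21, the cohesin subunit with the highest level, had 125 and 122 CPM (log2 0.03, adjusted p = 0.901). Among 14 genes for DNA methylation and repression, 2 fell and 0 rose, with a median of -0.27. Dnmt3a, a de novo DNA methyltransferase, had 100.2, 79.7 and 120.0 CPM in FAD5x, against 223, 173 and 160 CPM in Control and fell 1.85-fold (log2 -0.89 ± 0.19, edgeR adjusted p = 0.0458). Hdac1, a histone deacetylase, fell 1.92-fold (log2 -0.94 ± 0.13, adjusted p = 0.0121).

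Among relatives of the family, of 11 non-clustered protocadherins all had a fold change below 0, with a median of -0.46, and Pcdh18 fell (log2 -1.76 ± 0.34, edgeR adjusted p = 0.0333). Of 17 other cadherins 3 fell and 0 rose, where 1.39% and 1.76% of all tested genes did. The 3 were Cdh6, Cdh20 and Cdh10 (log2 -1.81, -0.69 and -0.58, edgeR adjusted p = 0.0147, 0.0310 and 0.0412), and the list median was -0.42. Sdk1, a synaptic recognition molecule, was the 1 gene called of 15 recognition molecules of the immunoglobulin family and fell 2.15-fold (adjusted p = 0.0110, list median -0.30). Of 22 cytoplasmic partners, which carry protocadherin signals to kinases and the actin-regulating WAVE complex, 1 fell, the receptor kinase Ret (2.84-fold, adjusted p = 0.0400, list median -0.07). Of the 7 genes for ADAM10 and gamma-secretase, which cleave protocadherins, 0 were called by edgeR, with 1 higher and 1 lower at an unadjusted p below 0.05 and 0 by DESeq2 or limma-voom (median 0.07). Adam10 had a log2 fold change of -0.21 and Ncstn of -0.18 (adjusted p = 0.443 and 0.496).

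The 8 pan-neuronal markers summed to 4835 to 7720 CPM in FAD5x, against 4599 to 5750 CPM in Control, with 0 called by edgeR (1 higher at an unadjusted p below 0.05, 0 by DESeq2 or limma-voom) and a median of 0.08. The 8 immature neuron markers summed to 86.9 to 164 CPM in FAD5x, against 284 to 552 CPM in Control, and all had a fold change below 0. Of them Nrep, Sox4 and Cd24a fell (3.68-fold, 4.28-fold and 5.75-fold, edgeR adjusted p = 0.00215, 0.0312 and 0.0120), where 1.39% of all tested genes did. The 9 meningeal fibroblast and mural markers summed to 113 to 156 CPM in FAD5x, against 240 to 482 CPM in Control, with Col3a1 fallen 10.4-fold (adjusted p = 0.00178). The sums of both lists, like the alpha sum and Pcdhgc4, were lower in every FAD5x library than in every Control library. This was not particular to these cell types. It also held for the sums of the other cadherins (388 to 487 CPM in FAD5x, against 536 to 583 CPM in Control) and of the recognition molecules. The sums of the CTCF and cohesin list and of the DNA methylation and repression list did the same. The part of immature neurons and of meningeal and mural cells in the alpha and Pcdhgc4 values was not tested.

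Microglia markers summed to 453 to 926 CPM in FAD5x, against 287 to 435 CPM in Control, with 9 of 9 above 0 and C1qa risen 4.72-fold (edgeR adjusted p = 0.00726), and oligodendrocyte markers to 3899 to 7609 CPM in FAD5x, against 2809 to 4142 CPM in Control, with Mobp risen 2.12-fold (adjusted p = 0.0474). Gpr17 was the 1 gene called of 7 precursor markers and fell 3.28-fold (edgeR adjusted p = 0.0147). The list had no common direction, with 3 genes above 0, 4 below and a median of -0.01. Its sums overlapped, with 297 to 450 CPM in FAD5x, against 376 to 470 CPM in Control. Inhibitory neuron markers, the cells for which Pcdhgc4 is best known, summed to 850 to 1137 CPM in FAD5x, against 947 to 1396 CPM in Control with a median of -0.11. Astrocyte markers had a median of -0.22 and endothelial markers of -0.47. The 5 tested choroid plexus markers had a median of -1.20 and the 2 tested serotonergic markers of -1.33. In these 5 lists 0 genes were called by edgeR, and at an unadjusted p below 0.05 the counts were 0 inhibitory, 1 astrocyte, 3 endothelial, 0 choroid plexus and 1 serotonergic; DESeq2 called 1 endothelial and 1 serotonergic gene and limma-voom 0.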

How the data were processed

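The deposited table holds raw counts, as 47729 lines of Ensembl genes by 6 cortex libraries; 1 line with a cell that was not a number was left out. Per the labels' protocols RNA came from TRIzol and spin columns, and the submitters' processing notes name limma, edgeR 3.38.4, featureCounts, STAR 2.7.11b and cutadapt, and GRCm39 as the build. Strandedness and the treatment of overlapping or multi-mapping reads are not given in the sources used here. Symbols, gene types, gene order and exonic lengths came from GENCODE M21, an earlier build, matched by identifier (47309 matched, 419 not), so no coordinates are given. No sequences are printed.

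Libraries were mapped to groups by the library names and the treatment label. The test was that of edgeR 4.0.16 under R 4.3.3 (quasi-likelihood F-test, robust, two-sided; filterByExpr, TMM scaling, intercept and genotype), adjusted by Benjamini-Hochberg over 17074 genes and called below 0.05. The members and lists were chosen with earlier results of these data known. Named members are all that were called, the 5 C-type members, and in each cluster the 3 with the highest level per kilobase and the 3 with the smallest p; other members named here were chosen after their values were seen. Of each other list up to 4 called genes, or else the 2 with the highest level, were to be named, though not all are given, and Ctcf, Taf7 and Diaph1 were picked outside that rule. The list entry Apbb3 was not analysed here, Znf143 and Hars1 were measured under their mouse symbols Zfp143 and Hars, and the results of 1 marker list are not reported here. In simulated counts for 17074 genes with 200 changed, drawn from genes with 40 to 1500 mean counts, 46% of 100 changed 2-fold and 89% of 100 changed 4-fold were called, with 14 calls among unchanged genes; with none changed 0 were called. Alternatives were limma 3.58.1 (voom), DESeq2 1.42.0, other scalings and filters, protein-coding genes only, a length trend taken out, a replicate block, an adjusted p below 0.10 and each library left out.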

Additional observations from a re-analysis of the deposited data

How the results depend on the processing

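Each of the 18 named members that was tested kept the direction of its fold change under every alternative, except Pcdha12 (0.029 with the length trend taken out, -0.64 to 0.28 with single libraries left out) and Pcdhb20 (-0.066 to 0.16 with single libraries left out), neither of which was called. The number of members called higher, 4, all beta, was 2 by limma-voom and 2 with a replicate block, and 0 to 4 with single libraries left out. The number called lower, 1, a gamma member, was 8 by DESeq2 (5 alpha, 2 beta), 7 at an adjusted p below 0.10 (4 alpha, 2 beta), 4 with no filter on low counts (2 alpha, 1 beta), 0 with a replicate block, and 0 to 1 with single libraries left out, with 0 alpha and 0 beta. The replicate numbers did not pair the libraries (correlations of same-numbered deviations -0.04, -0.09 and -0.31). Over all genes the fit with a replicate block called 36 higher and 36 lower, against 300 and 237 in the main fit. The beta median was 0.10 with no filter and -0.020 to 0.13 with single libraries left out. With single libraries left out, the medians of all members, alpha and gamma were -0.35 to -0.06, -0.97 to -0.73 and -0.33 to 0.03. The log2 ratio of summed levels ranged from -0.32 to -0.02 over all members, -0.83 to -0.45 for alpha, 0.13 to 0.34 for beta and -0.51 to -0.12 for gamma. In a range added after the data were seen it was -1.07 to -0.88 for Pcdha1 to Pcdha7, 1.12 to 1.49 for Pcdhb2 to Pcdhb8 and -0.81 to -0.47 for the C-type members. Called genes of the relative, partner, regulator and flanking lists numbered 1 higher and 8 lower; these were 5 and 15 at an adjusted p below 0.10, 4 and 19 by DESeq2, 3 and 15 with no filter, 2 and 5 with the length trend taken out, 0 and 0 with a replicate block, and 1 and 0 to 11 with single libraries left out, with 4 lower under library totals. Called markers numbered 2 higher and 5 lower; these were 4 and 12 at an adjusted p below 0.10, 7 and 16 by DESeq2, 4 and 9 with no filter, 1 and 2 with a replicate block, 1 higher among protein-coding genes only, and 1 to 6 and 2 to 9 with single libraries left out. The cause of these changes was not tested. Detection in genes with mean counts under 40 was not measured in the simulation.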
